A study of Mus musculus with 2 samples.

Results

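Metallothionein and zinc transporter genes were followed in liver RNA from 2 libraries, 1 from wild-type mice and 1 with the genotype label Lrg1 knockout, called the knockout-labelled library below. The 8 genes described here, Mt1, Mt2, Mtf1, Slc39a14, Slc39a8, Slc39a4, Slc30a1 and Slc30a10, were taken by symbol from the 22609 gene symbols in the count files. All 8 held at least 50 reads summed over both libraries, the minimum for a gene to count as measured, as did 11411 genes in all. Both libraries came from liver of male mice of strain C57BL/6 (wild type given as C57BL/6J in the treatment description) on a high fat diet with 45% of calories from fat, which began at 8 weeks of age and lasted 16 weeks. The second group is described as a whole body Lrg1 knockout. The sources used here do not tell whether a library held 1 mouse or a pool. With 1 library per group there was no replicate check and no test, so every difference below is between these libraries and not between genotypes.

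Metallothioneins are small cysteine-rich proteins that bind zinc, copper and cadmium in the cytosol, and liver is one of their main sites of synthesis. Their genes are switched on by MTF1, a zinc finger factor that senses free zinc and binds short metal response elements near the start of its targets, and they also respond to glucocorticoids and cytokines. Zinc enters the cytosol through SLC39 (ZIP) proteins and leaves it through SLC30 (ZnT) proteins, and several members of both families also carry manganese or iron.

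Because Mt1, Mt2 and Slc30a1 are known MTF1 targets and went different ways here, the sequence before each annotated start is shown. The metal response element core was searched as TGCACNC and TGCGCNC on both strands, 2 spellings that cannot match at the same base, in RefSeq windows of 300 bases on GRCm38.p6 that run from 250 bases before to 50 after the start. The windows give the position of the printed sequence only, since the count files carry no coordinates. Windows matched 6 of the 8 genes by symbol, not Slc39a4 and Slc39a14. Capitals mark the matches within the 250 bases upstream, which lie on the plus strand at chr8:94178839-94179088 for Mt1, chr8:94172368-94172617 for Mt2 and chr1:191906531-191906780 for Slc30a1.
Mt1: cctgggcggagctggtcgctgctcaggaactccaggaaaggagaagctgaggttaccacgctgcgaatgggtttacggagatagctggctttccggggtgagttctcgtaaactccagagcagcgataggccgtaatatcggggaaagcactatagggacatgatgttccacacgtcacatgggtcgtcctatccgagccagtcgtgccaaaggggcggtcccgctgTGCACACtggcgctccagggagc
Mt2: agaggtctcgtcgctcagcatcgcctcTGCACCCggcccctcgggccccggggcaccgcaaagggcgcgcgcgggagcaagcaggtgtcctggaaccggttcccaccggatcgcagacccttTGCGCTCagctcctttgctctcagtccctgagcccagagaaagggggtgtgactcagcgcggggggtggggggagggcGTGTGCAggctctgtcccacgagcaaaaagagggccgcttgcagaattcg
Slc30a1: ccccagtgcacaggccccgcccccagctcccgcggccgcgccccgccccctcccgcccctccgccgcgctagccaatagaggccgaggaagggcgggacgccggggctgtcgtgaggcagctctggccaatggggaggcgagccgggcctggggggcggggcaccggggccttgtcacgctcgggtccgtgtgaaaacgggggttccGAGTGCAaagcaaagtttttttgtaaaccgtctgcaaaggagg

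Further matches lay in the 50 bases after the start, where each is shown with 10 flanking bases on either side and the match in capitals. Positions count from the annotated start, and the first base of a match is given.
Mt1 at 3: cagggagctcTGCACTCcgcccgaaaa
Mt1 at 21: gcccgaaaagTGCGCTCggctctgcca
Mt2 at 5, minus strand: aattcgggtcGTGCGCAggcccagggg
Slc30a1 at 31, minus strand: cctccgggccGAGCGCAgtcgccgcgg

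Mt2 held 4 matches in its window, Mt1 held 3 and Slc30a1 held 2. Slc30a10 held 3, of which 2 are the same stretch read on both strands, at -233 and -232. Slc39a8 had 1 match over 2 windows and Mtf1 had 0. Of 32851 windows of this length in the RefSeq table, 25.7% held at least 1 match, 7.11% at least 2, 1.97% at least 3 and 0.517% at least 4. For Mt1, 2 of the 3 matches lie after the annotated start. Whether that start is the one used in liver was not tested, so the Mt1 window may leave out some of its promoter. A match is a description of letters, and 0 matches says only that the core is not written in that window.

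The libraries were of like depth, with 23311906 reads in genes for wild type and 18738397 for the knockout-labelled library. Levels are given as CPM, reads per 1000000 after TMM scaling (a trimmed mean of M-values sets the library factor), in which 1 read was worth 0.0441 and 0.0519 CPM. Intervals are exact 95% intervals for counting error only, and since molecules were not tagged before amplification, reads need not be independent. The targeted gene Lrg1 did not separate the labels. Its reads numbered 26958, 1190 CPM, in wild type and 17572 reads, 911 CPM, in the knockout-labelled library, a log2 ratio of -0.39. Hepatocyte markers such as Alb, Apoa1 and Ttr were abundant in both libraries, with 14 measured and 0 of them 2-fold apart. Of these 14, 11 were lower and 3 higher in the knockout-labelled library, with a median log2 ratio of -0.06 (summed level 140992 against 125810 CPM). Of other cell types, 13 of 15 macrophage and Kupffer cell markers were lower in the knockout-labelled library (summed level 788 against 608 CPM) and 13 of 15 sinusoidal endothelial markers were higher (381 against 530 CPM). Over all measured genes 51.7% were lower. None of the markers in these 2 lists was at 0. Of 6 adipocyte markers, Plin1, Lep and Retn were at 0 and 2 were measured, Cidea at a log2 ratio of -5.54 and Cfd at -2.54, which took the summed level from 105 to 7.16 CPM. With Plin1, Lep and Retn at 0, these values do not show whether fat cells were present. Stellate cell markers summed to 564 and 569 CPM. Of the 11 measured, 8 were higher and 3 lower, with a median of 0.09, and Col1a1 was farthest from 0 at -1.07. B cell markers summed to 4.46 and 10.8 CPM, and the 2 measured went different ways. Igj, now named Jchain, was at 1.70 on 56 and 156 reads, and Cd79b was at -0.16 on 29 and 22 reads. In whole tissue, fewer cells of a type and less RNA per cell cannot be told apart.

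Metallothionein reads were lower in the knockout-labelled library, Mt2 more so than Mt1. Among the transporters, the importers Slc39a14 and Slc39a4 were lower, the exporters Slc30a10 and Slc30a1 were higher, and Slc39a8 and Mtf1 stood close to equal. Of the 8 genes, 5 had a log2 ratio below 0 and 3 above, where 51.7% of all measured genes were below 0. The median of the 8 genes was -0.41, against a median of -0.01 over all measured genes. At least 2-fold lower was 1 gene, Slc39a4, and 0 were 2-fold higher. Over all measured genes 2.5% were at least 2-fold lower and 1.7% at least 2-fold higher. At 1.5-fold, 4 of the 8 were lower (Mt1, Mt2, Slc39a14 and Slc39a4) and 1, Slc30a10, was higher. The background shares at 1.5-fold were 6.91% lower and 5.85% higher. With scaling by total count Mt1 was at -0.52 and Slc39a14 at -0.57, both short of 1.5-fold. The part of macrophages, endothelium, stellate cells and B cells, whose markers are given above, in the ratios of the 8 genes was not tested. Nor was the part of the cells that gave the Cidea and Cfd reads.

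**Figure D1:**
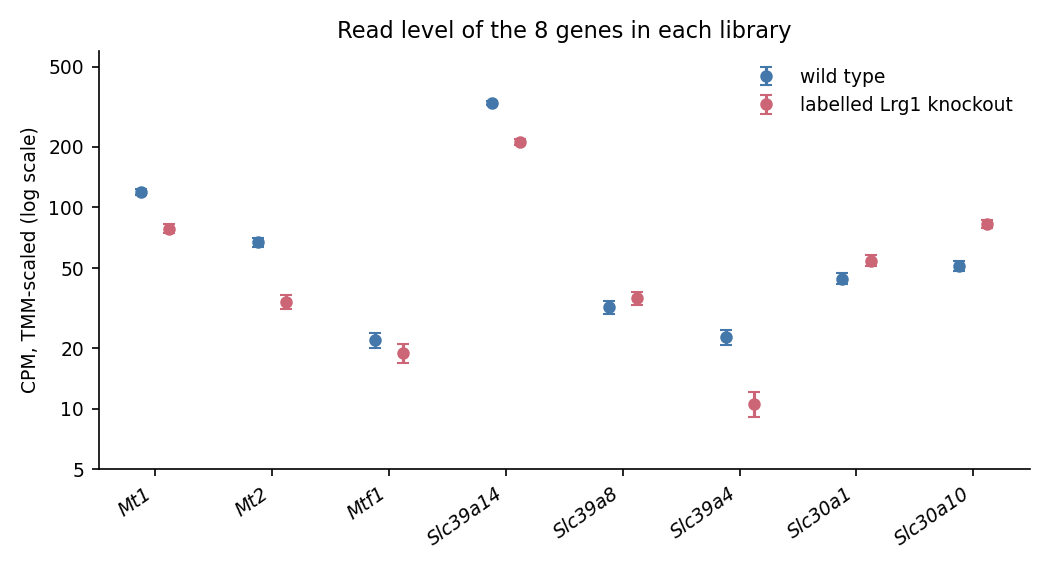
Level of each gene in CPM after TMM scaling, on a log axis, in the wild-type library and the knockout-labelled library. Points are 1 library each and bars are exact 95% Poisson intervals for counting error. Slc39a14 has the most reads in both libraries, and its 331 and 211 CPM lie apart, whereas the intervals of Mtf1 and Slc39a8 overlap.

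Mt1 had 2703 reads from wild type and 1513 from the knockout-labelled library. These were 119 CPM (115 to 124) and 78.5 CPM (74.6 to 82.5), so the intervals did not overlap. The level was 1.52-fold higher in wild type (1.43 to 1.62), a log2 ratio of -0.60. A lower ratio than that of Mt1 was found for 6.56% of the 11411 measured genes.

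Mt2 had 1522 reads from wild type and 653 from the knockout-labelled library. Its level went from 67.2 CPM (63.85 to 70.65) to 33.9 CPM (31.3 to 36.6). At 1.98-fold higher in wild type (1.81 to 2.18), a log2 ratio of -0.99, Mt2 stood just short of the 2-fold mark, and its interval lay on both sides of it. A lower ratio was found for 2.58% of measured genes, and for 1.46% of the 3415 measured genes whose mean CPM was within 2-fold of that of Mt2.

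The metallothionein pair also differed in its make-up, a measure that needs no scaling between libraries. Mt1 gave 64.0% of the reads of both genes in wild type (62.5 to 65.4, exact Clopper-Pearson interval) and 69.9% in the knockout-labelled library (67.9 to 71.8). The Mt2 part was smaller in the knockout-labelled library, and the intervals, which take reads as independent, did not overlap. Summed, Mt1 and Mt2 reads were 1.66-fold higher in wild type (1.58 to 1.75). The other genes of the family, Mt3, the form known from brain, and Mt4, the form known from stratified epithelia, had 0 reads in both libraries, which allows up to 0.132 CPM in wild type and 0.156 CPM in the other (3 counts, a one-sided limit and so lower than the upper end of the 2-sided intervals used elsewhere).

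Some of the Mt2 transcript overlaps a gene on the other strand. Of the 554 stretches of 50 bases, the read length, in annotated Mt2 transcripts, 45.8% also occur, read from the other strand, in Gm45774, which the count files do not list. The sources used here do not state whether counting used strand, so reads of Mt2 and of an antisense transcript cannot be told apart. For Mt1 the share was 0%, and for Slc39a4 it was also 0%. Mtf1, Slc30a1 and Slc30a10 shared 7.55%, 8.01% and 8.36% of such stretches, with 1110065P20Rik, 1700034H15Rik and Gm2061, genes that overlap them on the opposite strand. Slc39a8 and Slc39a14 shared 0.289% and 0.196%.

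Mtf1, the zinc-sensing factor upstream of the metallothioneins, had 495 reads from wild type and 363 from the knockout-labelled library. These were 21.9 CPM (19.97 to 23.9) and 18.8 CPM (16.9 to 20.9), with overlapping intervals. Relative to wild type the level was 0.861 (0.750 to 0.988), a log2 ratio of -0.21, inside the range where the middle 50% of measured genes lay (-0.22 to 0.19). Metallothionein reads per Mtf1 read were 8.54 in wild type (7.77 to 9.39) and 5.97 in the knockout-labelled library (5.34 to 6.69).

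**Figure D2:**
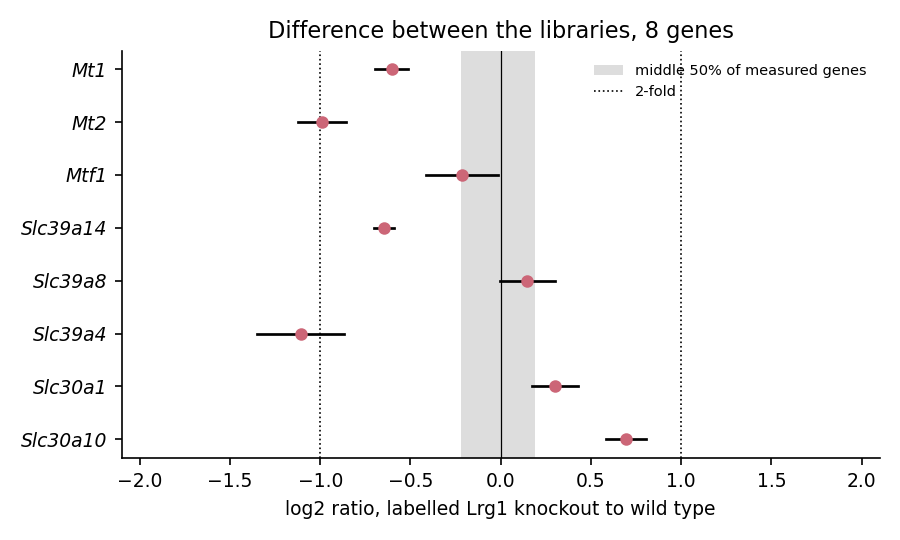
Log2 ratio of the knockout-labelled library to wild type for the 8 genes, with exact 95% intervals for counting error. The grey band holds the middle 50% of 11411 measured genes and dotted lines mark 2-fold. Mt1, Mt2, Slc39a14 and Slc39a4 lie to the left of the band, Slc30a10 and Slc30a1 to the right, and Mtf1 and Slc39a8 inside it.

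Slc39a14 encodes ZIP14, an importer of hepatocytes that carries zinc, manganese and iron not bound to transferrin, and whose gene is known to respond to IL-6. It had 7504 reads from wild type and 4076 from the knockout-labelled library, the most of the 8 genes. Its level was 331 CPM (324 to 339) against 211 CPM (205 to 218), and the intervals lay far apart. The level was 1.57-fold higher in wild type (1.51 to 1.63), a log2 ratio of -0.65. Among the 778 measured genes within 2-fold of its mean CPM, 5.4% had a lower ratio.

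Slc39a8 encodes ZIP8, the closest relative of ZIP14 and also a carrier of zinc and manganese. It had 722 reads from wild type and 681 from the knockout-labelled library, 31.9 CPM (29.6 to 34.3) and 35.3 CPM (32.7 to 38.1). The ratio of 1.11 had an interval that included no difference (0.996 to 1.23), the only such case among the 8 genes. Reads of Slc39a14 per read of Slc39a8 were 10.4 in wild type (9.63 to 11.2) and 5.99 in the knockout-labelled library (5.52 to 6.50), intervals that did not overlap.

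Slc39a4 encodes ZIP4, best known for zinc uptake in the intestine. It had 514 reads from wild type and 203 from the knockout-labelled library, 22.7 CPM (20.8 to 24.7) and 10.5 CPM (9.13 to 12.1). The level was 2.16-fold higher in wild type (1.83 to 2.55), a log2 ratio of -1.11, the lowest of the 8 genes. Slc39a4 passed the 2-fold mark by its point value, with an interval that reached below it, and Mt2 stood just on the other side. A lower ratio was found for 2.09% of measured genes.

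Slc30a1 encodes ZnT1, the zinc exporter of the plasma membrane and, like the metallothioneins, a known MTF1 target. It had 1001 reads from wild type and 1050 from the knockout-labelled library, 44.2 CPM (41.5 to 47.0) and 54.5 CPM (51.2 to 57.8). The ratio was 1.23 (1.13 to 1.35), a log2 ratio of 0.30, opposite in sign to Mt1 and Mt2. Metallothionein reads per Slc30a1 read were 4.22 in wild type (3.94 to 4.53) and 2.06 in the knockout-labelled library (1.92 to 2.22). All 3 genes hold response element cores in the windows shown above.

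Slc30a10 encodes an exporter that carries manganese, which hepatocytes pass into bile. It had 1156 reads from wild type and 1594 from the knockout-labelled library, 51.0 CPM (48.1 to 54.1) and 82.7 CPM (78.7 to 86.8). The ratio was 1.62 (1.501 to 1.75), a log2 ratio of 0.70, the highest of the 8 genes, and 96.0% of measured genes had a lower ratio. Slc30a10 made up 17.8% of reads of all SLC30 genes in wild type (16.9 to 18.8) and 26.2% in the knockout-labelled library (25.1 to 27.3). Against the other exporter described here, there were 1.15 Slc30a10 reads per Slc30a1 read in wild type (1.06 to 1.26) and 1.52 in the knockout-labelled library (1.40 to 1.64).

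The importer Slc39a14 and the exporter Slc30a10, which both move manganese across the hepatocyte membrane, differed in opposite directions. There were 6.49 Slc39a14 reads per Slc30a10 read in wild type (6.10 to 6.91) and 2.56 in the knockout-labelled library (2.41 to 2.71). Within the list of 9 manganese and divalent metal transport genes, 5 were higher and 4 lower (51.7% of all measured genes were lower), with 0 genes 2-fold apart. Their median of 0.14 was 0.03 without Slc30a10, and their mean was 0.015. After these 2 genes, the farthest from 0 were Slc11a1, a macrophage metal transporter, at a log2 ratio of -0.53 on 260 and 153 reads, and Slc40a1, the iron exporter ferroportin, at 0.40. Slc11a1 moved with the macrophage markers, whose summed level is given above, and their part in its ratio was not tested.

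**Figure D3:**
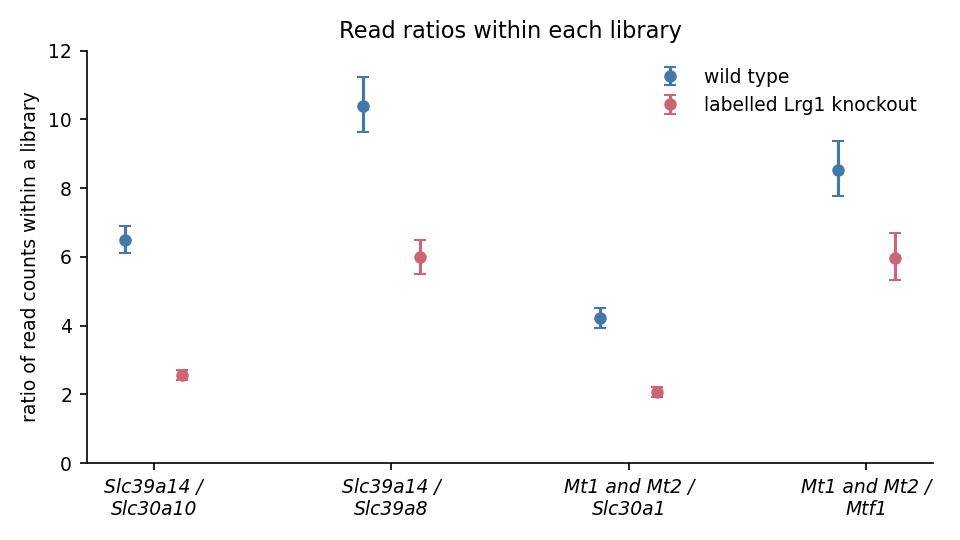
Ratios of read counts within each library, which need no scaling, with exact 95% intervals for counting error. For each of the 4 pairs drawn the knockout-labelled library lies below wild type and the intervals do not overlap, from 6.49 to 2.56 for Slc39a14 to Slc30a10 and from 4.22 to 2.06 for Mt1 and Mt2 to Slc30a1.

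Levels of different genes were compared per kilobase of merged exon length in GENCODE M21, as CPM per kilobase. The metallothioneins came first in both libraries, at 114 for Mt2 and 95.8 for Mt1 in wild type and at 63.0 for Mt1 and 57.6 for Mt2 in the knockout-labelled library, where their intervals overlapped. Slc39a14 followed at 31.4 and 20.04 CPM per kilobase. In wild type Slc30a10 (8.74) and Slc30a1 (8.43) had overlapping intervals, as had Slc30a1 and Slc39a4 (7.31), so these neighbours could not be ordered. In the knockout-labelled library they were apart, at 14.2, 10.4 and 3.39 CPM per kilobase, with Slc39a8 (4.61) now above Slc39a4. Mtf1 was lowest in both, at 2.45 and 2.11. The order of Mt1 and Mt2 depends on the length used: with the coding transcript that has the most exons, chosen after seeing the data, Mt1 came first at 217 against 131 in wild type and 143 against 66.3 in the other library. By that length Slc39a8 (9.02) had an interval that overlapped that of Slc30a10 in wild type. Slc39a8 then stood above Slc39a4 (8.25) in wild type too, with overlapping intervals, so their change of order depends on the length used. Slc39a14 stayed in the third place and Mtf1 in the last in both libraries.

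In the SLC39 family, 12 of 14 genes were measured, of which 8 were lower and 4 higher in the knockout-labelled library. Their median log2 ratio was -0.18. For comparison, a ratio below 0 was held by 51.7% of the 11411 measured genes, and 2.5% reached the 2-fold mark on that side. Besides Slc39a4, Slc39a5, an importer known from pancreas, intestine and liver, was at least 2-fold lower, with 84 reads against 29 (wild type 2.47-fold higher, 1.60 to 3.90). Slc39a11 was at -0.44 and Slc39a13, an importer of inner vesicles, at -0.26, both with intervals that excluded no difference. Slc39a6 was highest, at 0.84 on 43 and 66 reads. The abundant Slc39a7, which releases zinc from the endoplasmic reticulum, and Slc39a9, of the Golgi, were near 0 at -0.004 and 0.001, and these signs turn with the scaling. Of the 50-base stretches of Slc39a7, 74.5% also occur in the overlapping gene Gm20427, so reads of these genes cannot be told apart there. Slc39a1, Slc39a3 and Slc39a10 were at -0.10, 0.04 and -0.27 with intervals that included no difference. Slc39a1 shared 21.8% of its 50-base stretches with Slc39a1-ps. Reads of the whole SLC39 family were 1.25-fold higher in wild type (1.22 to 1.28), and without Slc39a14 they were 1.07-fold higher (1.03 to 1.10). Slc39a14 alone gave 45.5% of SLC39 reads in wild type (44.7 to 46.3) and 36.2% in the knockout-labelled library (35.3 to 37.1).

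In the SLC30 family, 7 of 10 genes were measured, of which 4 were higher and 3 lower, with 0 genes 2-fold apart and a median of 0.11 that was 0.006 without Slc30a10. The share lower over all measured genes was 51.7%. Besides Slc30a10 and Slc30a1, Slc30a4, a vesicular transporter, was at 0.30 on 353 and 371 reads. Slc30a5 and Slc30a6, whose proteins pair to load zinc into enzymes of the secretory pathway, were lower at -0.31 and -0.39 with intervals that excluded no difference. Slc30a7, which serves the same compartment, was at 0.11, and Slc30a9, a mitochondrial transporter, at -0.10, both with intervals that included no difference. Slc30a7 shared 15.3% of its 50-base stretches with other genes. Slc30a2, the vesicular transporter of mammary gland, had 0 reads in both libraries. Reads of the whole family were 1.10-fold higher in the knockout-labelled library (1.06 to 1.14).

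**Figure D4:**
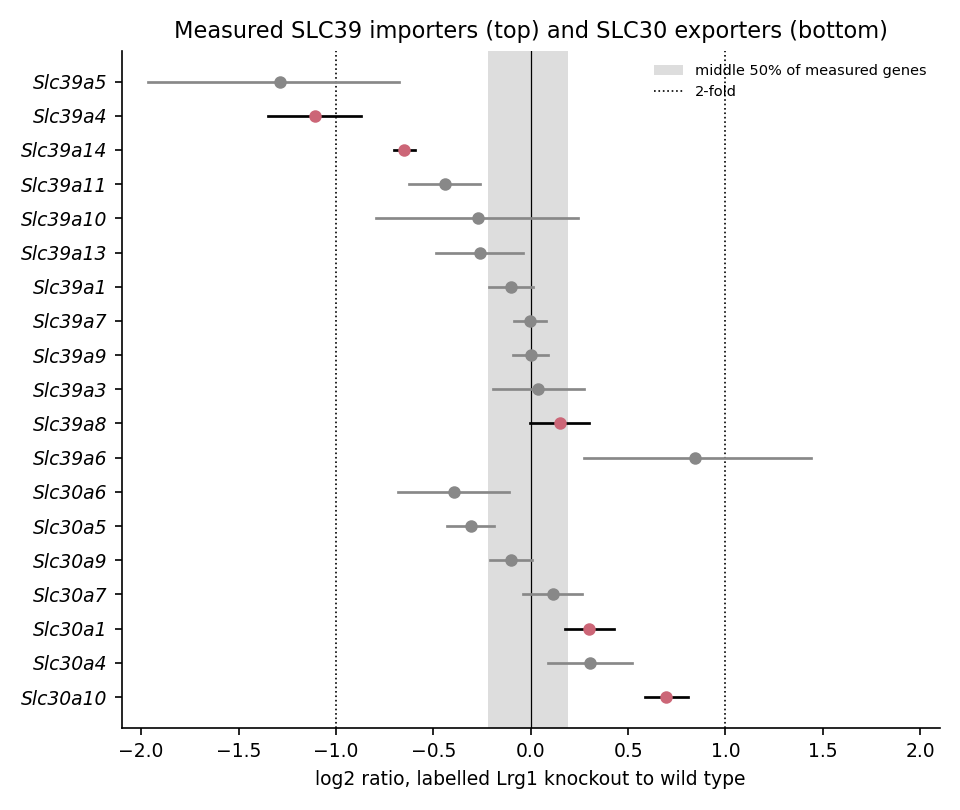
Log2 ratio of the knockout-labelled library to wild type for the 12 measured SLC39 genes and the 7 measured SLC30 genes, with exact 95% intervals for counting error. Red points are the transporters among the 8 genes, the grey band holds the middle 50% of measured genes, and dotted lines mark 2-fold. Slc39a5 and Slc39a4 lie past 2-fold lower, and Slc30a10 is the highest SLC30 gene at 0.70.

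Targets of MTF1 other than the metallothioneins went both ways. Of 8 listed targets, which include Mt1, Mt2 and Slc30a1, 5 were lower and 3 higher, where 51.7% of all measured genes were lower. The listed targets had a median of -0.29 and a mean of -0.09. Both values include Mt2 at -0.99 and Mt1 at -0.60, the lowest of the list, so they do not describe the other targets alone. Ndrg1, a stress-responsive gene, was 2.36-fold higher in the knockout-labelled library (2.09 to 2.66), with 413 and 828 reads, while Csrp1 was at -0.35 and Sepw1, a selenoprotein now named Selenow, at -0.30. Gclc, which makes the glutathione precursor, was at 0.24, and Slc39a10, a gene that MTF1 is known to repress, was at -0.27 on 78 and 55 reads.

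Glucocorticoid target genes, a class to which Mt1 and Mt2 belong, had a median log2 ratio of -0.56, with 12 of 20 lower, where 51.7% of all measured genes were below 0. At least 2-fold lower were 5 of them and 1 was at least 2-fold higher, beside 2.5% and 1.7% of all measured genes. Fkbp5, a chaperone of the glucocorticoid receptor, had 2508 reads from wild type and 541 from the knockout-labelled library, a log2 ratio of -1.98. Lcn2 was at -2.14 and Per1 at -1.81. Not all followed, since 8 of the 20 were higher. Igfbp1 was 3.48-fold higher (3.22 to 3.77), Sgk1 was at 0.71, Tat at 0.66 and Pck1 at 0.58, and Nr3c1, the receptor itself, was at 0.20. The summed level of the list was 8377 CPM in wild type and 9432 CPM in the knockout-labelled library. Mt1 and Mt2 are counted among the lower genes of this list.

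Genes of the IL-6 and STAT3 acute phase response, to which Slc39a14 and the metallothioneins are also known to respond, had a median of -0.34 and a mean of -0.54, with 21 of 24 below 0 beside 51.7% of all measured genes. Of these 4 lay past 2-fold, beside 2.5% of measured genes. Il6ra, the IL-6 receptor subunit, had 1210 reads from wild type and 440 from the knockout-labelled library, a log2 ratio of -1.23. Orm3 was at -2.55 and Orm2 at -1.03, though Orm genes are close copies and their single values are uncertain. Socs3, a direct STAT3 target, was at -0.03, an interval reaching over 0. Lcn2 belongs to both this list and the glucocorticoid list.

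Copper handling genes, which meet the metallothioneins because these also bind copper, had a median of -0.18, with 11 of 16 lower and 0 of them 2-fold apart. The share lower over all measured genes was 51.7%. Besides Mt1 and Mt2, Steap4, a metalloreductase, had 5308 reads from wild type and 2391 from the knockout-labelled library, a log2 ratio of -0.92. Atp7b, the copper pump that loads ceruloplasmin and serves biliary copper excretion, was at -0.54 on 689 and 404 reads.

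Genes listed as zinc-dependent liver enzymes were mostly lower, with 19 of 22 measured genes below 0 and a median of -0.18. Hepatocyte markers were also mostly lower, 11 of 14 measured, with a median of -0.06. Car8, at -0.06, is counted in the list, and whether its protein holds zinc was not checked. Alpl, alkaline phosphatase, had 947 reads from wild type and 307 from the knockout-labelled library (log2 ratio -1.39). Alpl was the only gene of the list at least 2-fold lower, beside 2.5% of all measured genes. The carbonic anhydrase genes Car2, Car5a and Car1 were at -0.94, -0.71 and 0.84, the last on 68 and 104 reads. For these lists, as for the 8 genes, the counts describe 2 libraries, and 51.7% of all measured genes had a ratio below 0.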

How the data were processed

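Liver RNA was measured in 2 libraries, 1 per group. Per the labels' protocols, some 500 ng of RNA per library went through oligo(dT) selection and a stranded kit, with single-end reads 50 bases long. Per the submitters' processing notes, bcl2fastq, TopHat2, HTSeq and mm9 were used; the sources used here give no versions, strand setting or gene annotation. The authors deposited raw counts per gene symbol, used here as deposited; lines that name no gene were left out, among them reads outside genes (14.0% and 14.4% of unique reads).

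Counts were scaled by TMM (edgeR 4.0.16, R 4.3.3; factors 0.972 and 1.03). Log2 ratios used a prior count of 0.5. Ratio intervals are Clopper-Pearson given both counts, at 95%. No test between groups was possible. Exon lengths and shared 50-base stretches came from GENCODE M21 (GRCm38), promoters from RefSeq. Log2 ratios and their intervals were tested on simulated independent counts with the library sizes given, so TMM scaling was not part of that test. The rest used Python 3.11.15 (scipy 1.17.1, pandas 2.3.3, numpy 2.4.6, matplotlib 3.10.9).

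The genes and lists were chosen with earlier results of these data known. Named were the 8 genes, other measured genes of their families, in each pathway list members among the 4 farthest from 0, the 3 genes nearest in ratio to Mt1 and Mt2 at like level, and chromosomal neighbours, of which some are not reported here. Sepw1, Nr3c1, Socs3, Sgk1, Tat, Pck1, Car8, Alb, Apoa1, Ttr and the other cell type markers, outside this rule, were named after their values were seen. Alternatives were other scalings (total count with and without the 20 most abundant genes, DESeq2 1.42.0 size factors), thinning, a prior count of 2, read minimums of 1, 10 and 200, thresholds of 1.5-fold and 3-fold, and other lengths.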

Additional observations from a re-analysis of the deposited data

Results flagged for a closer look

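Non-unique alignments, which no gene's count includes, formed 50.3% of counted lines for wild type and 58.0% for the knockout-labelled library. They stand here because they are far above 0 in lines outside every comparison made. Their part in the values of the 8 genes was not tested.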

How the results depend on the processing

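Over 5 alternatives of scaling, depth and prior, the log2 ratios of the 8 genes changed sign in 0 of 40 values and left the counting interval in 2, both of Slc39a14: -0.57 with scaling by total count and -0.59 when the total left out the 20 most abundant genes. The largest shift of a member was 0.083, and the median of all measured genes moved to 0.07 and 0.05 under these scalings. Mt2 crossed the 2-fold mark with the deeper library thinned, which gave 2 genes at least 2-fold lower. By construction, 1.5-fold gave 4 lower and 1 higher and 3-fold gave 0 lower. The median of the 8 genes was -0.21 without Slc39a4 and their mean -0.30. Over all genes, 2-fold higher and lower numbered 1243 and 1449 without a read minimum, 458 and 525 from 10 reads and 100 and 166 from 200 reads; at 1.5-fold they were 667 and 789, and at 3-fold 51 and 105. The level of Mt2 per length relative to Mt1 was 1.19 in wild type and 0.915 in the knockout-labelled library, but 0.605 and 0.464 with the coding transcript of most exons, a length chosen after seeing the data; this follows from the shorter length of Mt1. Of 70 values of 14 other family genes, 4 changed sign, all of Slc39a7 and Slc39a9. The NRF2 list median of -0.03 turned to 0.058 by total count, 0.034 by that total less the top 20 genes, 0.039 without a read minimum, and 0.0035 from 10 reads and without its most different gene; the cause was not tested. Without their most different gene the SLC30 median went from 0.11 to 0.0055 and that of manganese and divalent metal transport from 0.14 to 0.032. Means differed from medians for that list (0.015), MTF1 targets (-0.09), glucocorticoid targets (-0.45), acute phase genes (-0.54) and macrophage markers (-0.52 against -0.35). No paired analysis was possible because each group has 1 library, and for the same reason no library could be left out. Depth limits genes under 50 reads.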

Other observations

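Oxidative stress genes under NRF2, a factor that shares Gclc with the MTF1 targets, went both ways, with 7 of 14 measured genes higher, 7 lower and a median log2 ratio of -0.03. The share lower among all measured genes was 51.7%, and 2.5% of them were at least 2-fold lower. Of the listed genes, Nqo1, a quinone reductase, was the only one at least 2-fold lower, with 194 wild-type and 63 knockout-labelled reads (-1.38). Gstm1 was at -0.36, Gsr, glutathione reductase, at 0.27 and Gclc at 0.24.

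Mt1 and Mt2 lie side by side on chromosome 8, with a gap of 5.51 kb between them in GENCODE M21. Of 8 other protein-coding genes within 200 kb that the count files list, 4 were measured, with log2 ratios from -0.44 for Bbs2 on 83 and 52 reads to 0.71 for Nup93 on 78 and 109 reads. Ogfod1 was at 0.12, and 0 of the 4 were 2-fold apart.

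Likeness of pattern could be taken only as closeness of log2 ratio over 2 libraries, among genes within 2-fold of the mean CPM. Nearest to Mt1, of 2124 such genes, were Pacsin2 (-0.61), the macrophage gene Mpeg1 (-0.61) and Tcn2 (-0.61). Nearest to Mt2, of 3415 genes, were 9030617O03Rik (-0.99), Btg2 (-0.99) and Adora1 (-0.98).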
